A study of Mus musculus with 10 samples.

Results

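The presynaptic vesicle release machinery is the set of proteins that fills synaptic vesicles with transmitter, holds them at the terminal and fuses them with the membrane when calcium enters. Its transcripts are described here in the hippocampus of mice without the thyroid-stimulating hormone receptor gene Tshr and of wild-type mice. The 27 genes were chosen by name as parts of this machinery, though with earlier results of these data known. All 27 had a row in the deposited table, of 52636 rows in all. The study addressed spatial learning and memory under loss of thyrotropin receptor signalling. It holds 5 Tshr-/- and 5 wild-type hippocampal libraries, all from C57BL/6 mice 3 months old, as 10 separate biological replicates of total RNA. The labels name neither the Tshr allele, nor whether a replicate was 1 mouse, nor any thyroid hormone treatment of the mutants, and they do not say whether the wild-type mice were littermates. Levels are FPKM, fragments scaled to gene length and library size, so that genes can be compared per length. Each mean is given with its SD, from n = 5 libraries per genotype.

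At rest, vesicles are tethered by synapsins and docked at the active zone, a protein scaffold of bassoon, piccolo and RIM proteins. Munc13 proteins (Unc13 genes) and complexins bring the SNARE proteins of vesicle and membrane into a state ready to fuse. Synaptotagmins then sense calcium and trigger fusion. In the hippocampus, glutamate is loaded mostly by VGLUT1 (Slc17a7), while VGLUT2 (Slc17a6) marks inputs from the thalamus and other subcortical sites. Synaptotagmin 1 serves most forebrain terminals, and synaptotagmin 2 and synaptobrevin 1 (Vamp1) serve fast terminals, among them those of parvalbumin interneurons.

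Sequences before the start site are shown for Slc17a7, Slc17a6 and Vamp1, which separated libraries by thalamic markers. Unc13c also separated them and is not shown. Syt2 is shown because it was examined beside Vamp1 with those markers, and Syn1 and Unc13a because they hold a motif other than the GC box. The sequences come from the RefSeq promoter table on GRCm38.p6 (mm10), and run 5′ to 3′ on the gene's strand. Except for Unc13a, they stop before the first transcribed base of both RefSeq and the deposited gene record. The glutamate transporter windows lie at chr7:45163671-45163920 (plus strand, Slc17a7) and chr7:51621580-51621829 (plus, Slc17a6). That of Vamp1 lies at chr6:125215331-125215550 (plus), that of Syt2 at chr1:134646362-134646611 (plus) and that of Syn1 at chrX:20921005-20921168 (minus). For Unc13a the 26 bases at chr8:71671727-71671752 (minus), just after its RefSeq start, are given. Capitals mark the motifs searched on both strands, which were GGGCGG (GC box), TGACGTCA (cyclic AMP response element), and TTCAGCACC and GGACAGCGC, the left and right parts of RE1, the element bound by the repressor REST.
Slc17a7: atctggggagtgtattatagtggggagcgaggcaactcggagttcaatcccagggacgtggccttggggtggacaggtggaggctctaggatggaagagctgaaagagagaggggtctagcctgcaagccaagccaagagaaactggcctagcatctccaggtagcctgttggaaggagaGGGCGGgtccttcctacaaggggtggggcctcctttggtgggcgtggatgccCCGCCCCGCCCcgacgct
Slc17a6: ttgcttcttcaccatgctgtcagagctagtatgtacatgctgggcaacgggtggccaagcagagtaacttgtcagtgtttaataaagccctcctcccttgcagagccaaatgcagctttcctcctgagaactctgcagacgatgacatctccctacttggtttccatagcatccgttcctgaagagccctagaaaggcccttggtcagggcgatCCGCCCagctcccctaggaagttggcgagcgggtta
Vamp1: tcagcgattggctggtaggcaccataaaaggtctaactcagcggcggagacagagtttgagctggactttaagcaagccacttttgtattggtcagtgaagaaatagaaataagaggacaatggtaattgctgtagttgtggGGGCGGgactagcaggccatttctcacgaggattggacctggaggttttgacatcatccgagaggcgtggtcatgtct
Syt2: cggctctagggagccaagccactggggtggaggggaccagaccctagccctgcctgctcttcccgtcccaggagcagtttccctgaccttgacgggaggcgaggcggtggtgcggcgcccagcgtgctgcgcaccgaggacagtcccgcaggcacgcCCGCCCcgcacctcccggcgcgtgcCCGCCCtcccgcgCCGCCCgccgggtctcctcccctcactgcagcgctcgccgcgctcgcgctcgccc
Syn1: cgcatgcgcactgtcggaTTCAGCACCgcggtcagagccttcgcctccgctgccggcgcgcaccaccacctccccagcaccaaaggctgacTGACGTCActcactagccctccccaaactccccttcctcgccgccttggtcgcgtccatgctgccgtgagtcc
Unc13a: GCGCTGTCCgcgcccccGGTGCTGAA

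Of the 27 genes, 21 had a window of 300 bases around a RefSeq start. The windows of Cplx2 and Nrxn3 belong to other start sites than the 5′ end of the deposited record. A GC box was in 16 of the 21 windows (76.2%) and in 44.1% of 19496 windows of all matched genes. The median window held 18 CpG dinucleotides among the 21 and 12 among all, and the shares were not compared at equal CpG content. The left part of RE1 was in the windows of Syn1 and Unc13a and in 0.374% of all windows, and the right part in that of Unc13a and in 0.503%. The cyclic AMP response element was in the window of Syn1 and in 2.3% of all windows. The 250 bases printed for Syt2 hold 30 CpG dinucleotides, those for Slc17a7 hold 9 and those for Slc17a6 hold 7. A match is a match of letters only, and in Slc17a7 the last 2 GC boxes share 1 base.

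The libraries held 23899650 to 33529811 reads, rebuilt from FPKM and gene length, and none of the 27 genes had fewer than 57 reads in any library. Counting error is therefore small beside the spread between libraries, except at the lowest levels. Tshr had 0, 0, 0, 5 and 2 reads in Tshr-/- libraries 1 to 5 and 9, 12, 7, 2 and 2 in wild-type libraries 1 to 5. The deleted part is not named, so these reads check nothing. Prox1, a marker of dentate granule neurons, was present in every library, at 9.75 to 16.7 FPKM. Some libraries stood apart in markers of neighbouring tissue. The mean over a list of thalamus and habenula genes (18 of 19 tested), centred on all libraries, was 1.17, 2.10, -0.60, -0.44 and -0.51 log2 units in Tshr-/- libraries 1 to 5 and -1.09, 0.50, -0.89, -1.20 and 0.95 in wild-type libraries 1 to 5. Tshr-/- libraries 1 and 2 and wild-type libraries 2 and 5 thus lay above the average, and the other 6 lay below. The list was not balanced between genotypes. All 18 tested thalamus and habenula genes had a higher point estimate in Tshr-/- (median log2 difference 0.61). So had 9 of 10 choroid plexus genes (1.19) and 7 of 10 neocortex and subplate genes (0.12), beside 7227 of all 15471 tested genes. Tshr-/- library 4 had the highest choroid plexus mean (4.13), with 2189 FPKM of the choroid plexus gene Ttr, and Tshr-/- library 5 the highest neocortex and subplate mean (0.68). None of the 27 release genes is on these marker lists. No sequencing batch is given in the labels.

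No gene of the release machinery passed the test between Tshr-/- and wild-type hippocampus. Limma, fitted to log2(FPKM + 0.1) of all 15471 genes with a mean of at least 0.5 FPKM, called 0 of the 27 at an adjusted p below 0.05, and 0.0129% of all tested genes. All 27 passed the filter on low values, and their limma adjusted p values ran from 0.363 to 0.987. Of the 27, 1 (Cplx2) had an unadjusted limma p below 0.05, a smaller share than the 13.0% of all tested genes. Point estimates were lower in Tshr-/- for 18 and higher for 9, beside 53.3% of all tested genes lower. The median log2 difference was -0.058 over the 27 and -0.010 over all tested genes. This split depended on scaling, since after quantile normalization, and likewise after scaling to total reads, 10 were lower and 17 higher. Of all 15471 tested genes, 7866 were lower after quantile normalization and 5218 after scaling to total reads, beside 8244 without either. For 0 of the 27 genes were the 5 Tshr-/- libraries all to one side of the 5 wild-type libraries, against 2.68% of all tested genes.

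The precision of this comparison differed widely between genes. The 95% interval of the difference lay within 1.5-fold in either direction for 20 genes and within 2-fold for 23. Only Slc17a6, Syt2, Unc13c and Cplx3 had wider intervals. Vamp2, Snap25, Nrxn3, Syt1, Rab3a and Pclo were among the steadiest genes of the data, with an SD between libraries of 1 genotype below that of at least 80% of tested genes. Slc17a6, Unc13c, Cplx3, Syt2 and Stx1a had an SD above that of 90% of tested genes.

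**Figure D1:**
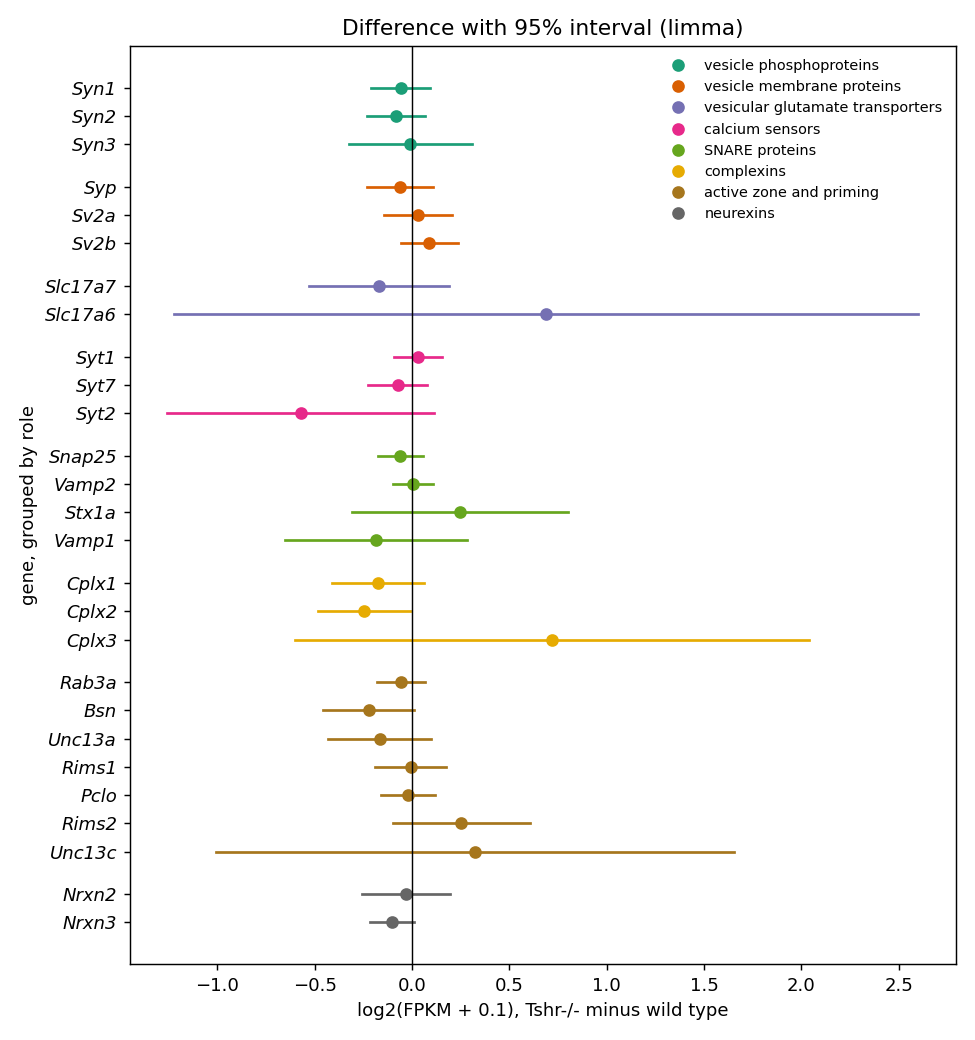
Difference between Tshr-/- and wild type for each of the 27 genes, on the log2(FPKM + 0.1) scale (horizontal axis), with points for the limma estimate, bars for its 95% interval and colours for the role of the protein. Most intervals are narrow and span 0, that of Cplx2 ends just below it, and those of Slc17a6, Cplx3, Unc13c and Syt2 are the widest.

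The release genes spanned a wide range of levels. Of the 27 genes, 10 had a wild-type mean above 100 FPKM and 6 were under 10 FPKM, with the median tested gene at 5.05 FPKM. The highest were Cplx1 and Slc17a7, both at 396 FPKM in wild type, followed by Cplx2, Snap25 and Rab3a. The highest and the lowest, Syn3, differed by 501-fold.

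**Figure D2:**
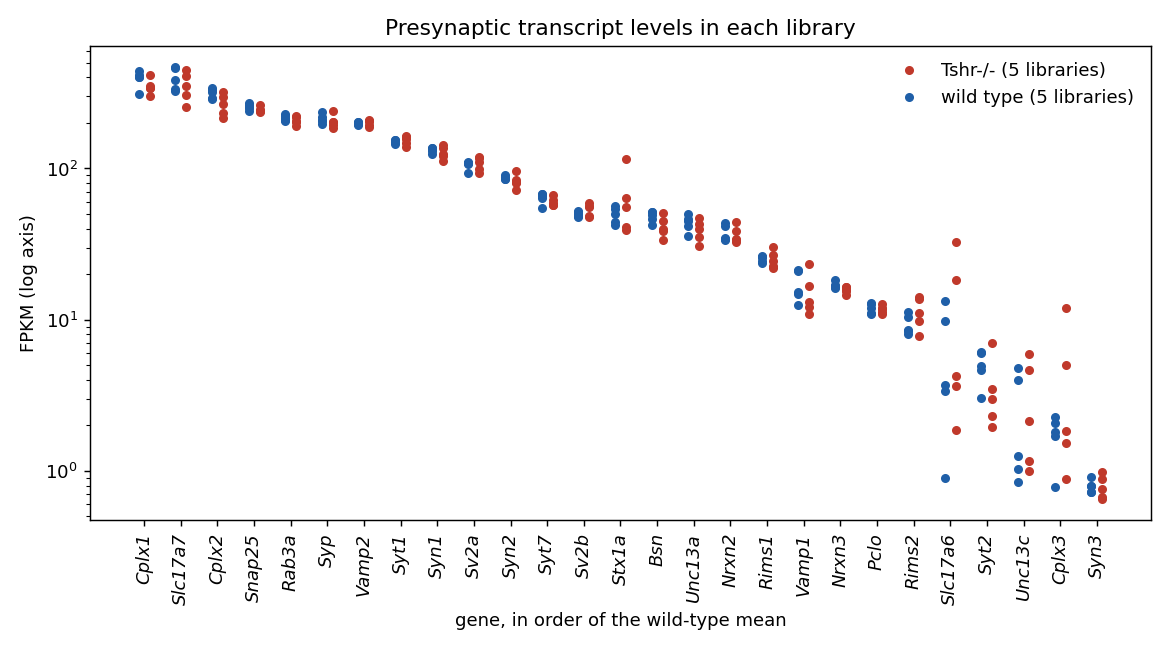
FPKM of each gene in every library on a log axis, with wild type in blue and Tshr-/- in red (5 libraries each) and genes in order of the wild-type mean. The points of the 2 genotypes overlap for every gene, and the spread within a genotype widens for Stx1a, Vamp1 and most genes under 10 FPKM.

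Synapsins coat vesicles and hold them in the reserve pool. Syn1 had 127 ± 12.3 FPKM in Tshr-/- and 132 ± 5.21 in wild type, and Syn2 had 82.7 ± 8.53 and 87.3 ± 2.31. For Syn2, 4 Tshr-/- libraries lay below the lowest wild-type library (84.9 FPKM), while the fifth, library 3, was the highest of all at 95.8. Syn3, the minor synapsin of adult brain, was at 0.791 ± 0.142 and 0.790 ± 0.0743 FPKM. Its record overlaps that of Timp3 on the opposite strand, at 6.54 FPKM. Without strand, reads from any shared exon bases could not be told apart, and exon overlap was not examined. All 3 estimates were slightly lower in Tshr-/- (log2 differences from -0.08 to -0.01), and none passed the test. Those of Syn1 and Syn2 turned positive after quantile normalization, and that of Syn3 after median-ratio scaling.

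The vesicle membrane proteins synaptophysin (Syp) and SV2, a transporter-like glycoprotein, showed no call either. Syp had 206 ± 21.2 FPKM in Tshr-/- and 214 ± 14.5 in wild type. Sv2a had 108 ± 11.2 and 105 ± 7.16. Sv2b was at 59.2, 47.9, 56.4, 48.2 and 55.3 FPKM in Tshr-/- libraries 1 to 5 and 50.1, 51.3, 48.6, 48.1 and 52.4 in wild-type libraries. Of the Tshr-/- libraries, 3 were above all wild-type libraries and 1 was below them. The log2 difference of Sv2b was 0.09 ± 0.07 (SE, limma adjusted p = 0.596).

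The vesicular glutamate transporters differed from each other in where they were high. Slc17a7 (ENSMUSG00000070570, chr7:45163949-45176142) was at 308, 254, 409, 352 and 450 FPKM in Tshr-/- libraries 1 to 5 and at 466, 326, 464, 385 and 337 in wild-type libraries 1 to 5. Slc17a6 (ENSMUSG00000030500, chr7:51622006-51671119) was at 18.4, 32.6, 3.62, 1.85 and 4.24 FPKM in Tshr-/- libraries and at 3.40, 9.77, 3.70, 0.896 and 13.4 in wild-type libraries, a 36.4-fold range. Within each genotype, Slc17a6 was highest and Slc17a7 lowest in the same 2 libraries, which were those above average in thalamic markers. The log2 difference of Slc17a7 was -0.17 ± 0.16 (SE, limma adjusted p = 0.684), and -0.01 with the thalamus list mean as a covariate (0.974). That of Slc17a6 was 0.69 ± 0.87 (0.772), and it was -0.23 with the thalamus list mean as a covariate (0.836). Without Tshr-/- library 2 the difference of Slc17a6 was 0.14 and that of Slc17a7 -0.06, and without wild-type library 4 that of Slc17a6 was 0.15. In whole tissue, fewer cells of a type and less RNA per cell cannot be told apart.

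Synaptotagmins are the calcium sensors. Syt1, the sensor for fast release at most forebrain synapses, had 154 ± 10.4 FPKM in Tshr-/- and 150 ± 4.51 in wild type (log2 difference 0.03, 95% interval from -0.09 to 0.15). Syt7, a slower sensor with high calcium affinity, had 60.7 ± 3.90 and 64.1 ± 5.34. Syt2 (ENSMUSG00000026452, chr1:134646677-134762593) was at 3.48, 7.07, 3.00, 1.97 and 2.31 FPKM in Tshr-/- libraries 1 to 5 and at 4.63, 6.06, 4.94, 3.05 and 6.10 in wild-type libraries 1 to 5. In all, 3 Tshr-/- libraries lay below the lowest wild-type library, and Tshr-/- library 2, the highest in thalamic markers, lay above the highest. The log2 difference of Syt2 was -0.57 ± 0.31 (SE, limma adjusted p = 0.462), with a 95% interval from -1.26 to 0.11.

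SNARE proteins form the bundle that pulls vesicle and plasma membrane together. Snap25, on the plasma membrane side, was at 265, 242, 244, 235 and 241 FPKM in Tshr-/- libraries 1 to 5 and at 254, 271, 251.9, 240 and 264 in wild-type libraries. Vamp2, the main vesicle SNARE of the forebrain, was the steadiest of the 27 genes, at 200 ± 9.16 against 199 ± 3.61 FPKM, with a 95% interval of the log2 difference from -0.10 to 0.11. Its relative Vamp1 (ENSMUSG00000030337, chr6:125215551-125245964) varied more, at 16.7, 23.3, 13.1, 12.1 and 10.97 FPKM in Tshr-/- libraries 1 to 5 and 14.9, 21.0, 15.3, 12.6 and 21.3 in wild-type libraries 1 to 5 (log2 difference -0.18 ± 0.21, SE, limma adjusted p = 0.749). Again the highest libraries of each genotype were those above average in thalamic markers.

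Stx1a, the partner of Snap25 on the plasma membrane, had 1 library far above the rest. It was at 63.6, 38.9, 56.0, 41.2 and 115 FPKM in Tshr-/- libraries 1 to 5 and at 53.8, 42.2, 56.3, 44.2 and 49.8 in wild-type libraries. The log2 difference of 0.24 ± 0.25 (SE, limma adjusted p = 0.712) became -0.00200 without Tshr-/- library 5, the library with the highest neocortex and subplate mean. With thalamus, choroid plexus and neocortex covariates in all libraries it stayed at 0.17 (limma adjusted p = 0.311).

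Complexins clamp and then assist the SNARE bundle, and they gave the smallest p among the 27 genes. Cplx2 (ENSMUSG00000025867, chr13:54371349-54383917, mm10), the form of excitatory forebrain neurons, was at 233, 216, 296, 321 and 265 FPKM in Tshr-/- libraries 1 to 5 and at 341, 292, 328, 321 and 287 in wild-type libraries 1 to 5. In all, 3 Tshr-/- libraries lay below all wild-type libraries, and none lay above them. The log2 difference was -0.25 ± 0.11 (SE, limma adjusted p = 0.363, unadjusted p = 0.0411). The mean FPKM of Cplx2 in Tshr-/- was 84.9% of that in wild type. The log2 difference stayed negative in all 26 other fits, from -0.319 to -0.148, with limma adjusted p from 0.223 to 0.638. The value nearest 0, -0.148, came with the thalamus covariate (limma adjusted p = 0.366). Within each genotype, the 2 libraries lowest in Cplx2 were those above average in thalamic markers.

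Cplx1, prominent in inhibitory and thalamic neurons, was at 342, 416, 340, 300 and 350 FPKM in Tshr-/- libraries and at 416, 405, 442, 312 and 403 in wild-type libraries. Both genotypes held their lowest value in library 4, and the groups overlapped (log2 difference -0.18 ± 0.11, SE, limma adjusted p = 0.505). With the thalamus covariate the difference of Cplx1 was -0.23 (0.367). Cplx3, a complexin of retina and of subplate neurons, was at 5.02, 1.84, 1.53, 0.885 and 11.9 FPKM in Tshr-/- libraries and at 1.71, 2.07, 2.29, 0.778 and 1.82 in wild-type libraries. Its 2 high values came from Tshr-/- libraries 5 and 1, which also ranked first and second in neocortex and subplate markers. The log2 difference of Cplx3 was 0.72 ± 0.60 (SE, limma adjusted p = 0.637), and it was 0.23 with thalamus, choroid plexus and neocortex covariates. Without Tshr-/- library 5 it was 0.20. The part of neighbouring tissue in these values was not tested beyond such covariates.

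**Figure D3:**
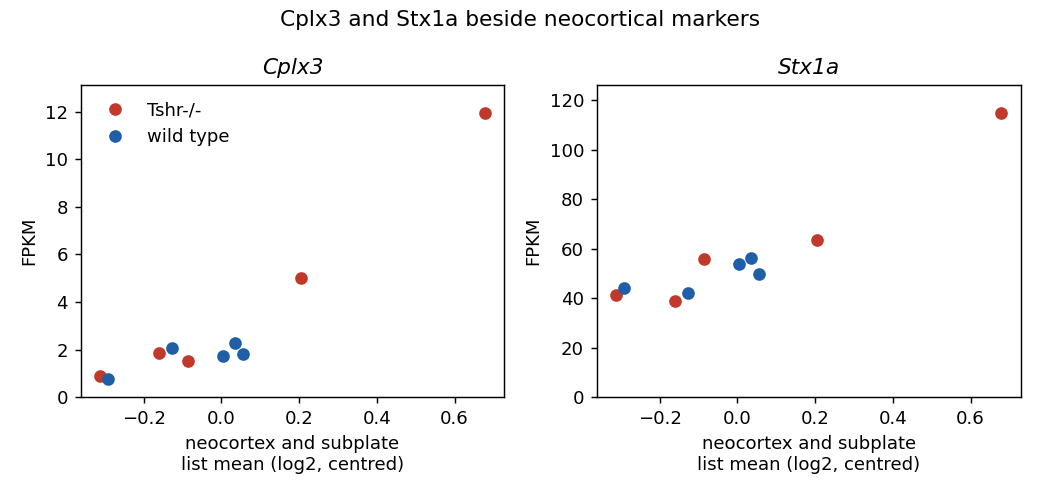
FPKM of Cplx3 (left) and Stx1a (right) in each library against the centred log2 mean of the neocortex and subplate list, with Tshr-/- in red and wild type in blue. Tshr-/- library 5, at 0.68 on the horizontal axis, has the highest value of both genes (11.9 and 115 FPKM).

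At the active zone, bassoon (Bsn) and piccolo (Pclo) are giant scaffold proteins, RIM proteins (Rims1, Rims2) link vesicles to calcium channels, Munc13 proteins prime vesicles and Rab3a is the vesicle GTPase that RIM binds. Bsn was at 38.5, 33.6, 45.3, 39.7 and 51.0 FPKM in Tshr-/- libraries 1 to 5 and at 51.6, 42.5, 51.6, 46.3 and 49.4 in wild-type libraries 1 to 5. In all, 3 Tshr-/- libraries lay below all wild-type libraries, but library 5 lay among the highest (log2 difference -0.22 ± 0.11, SE, limma adjusted p = 0.398). With the thalamus covariate the difference of Bsn was -0.15 (0.526). Pclo, the close relative of Bsn, had 11.7 ± 0.671 and 11.9 ± 0.888 FPKM.

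Unc13a, the main priming factor of glutamatergic terminals, was at 35.5, 30.9, 42.7, 39.8 and 46.7 FPKM in Tshr-/- libraries and at 44.97, 35.7, 46.4, 50.3 and 41.4 in wild-type libraries. Its log2 difference was -0.17 ± 0.12 (SE, limma adjusted p = 0.574), and -0.05 with the thalamus covariate (0.801). Within each genotype, the 2 libraries lowest in Unc13a were those above average in thalamic markers. Unc13c, best known from cerebellum, was at 4.67, 5.90, 1.16, 0.998 and 2.13 FPKM in Tshr-/- libraries and at 1.03, 3.99, 1.248, 0.843 and 4.78 in wild-type libraries. The 4 highest values of Unc13c were those of the 4 libraries above average in thalamic markers. Its log2 difference of 0.32 ± 0.60 turned to -0.33 with the thalamus covariate (limma adjusted p = 0.853 and 0.574). Without Tshr-/- library 2 it was 0.00134.

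Rims1 had 25.3 ± 3.31 FPKM in Tshr-/- and 25.3 ± 1.14 in wild type. Rims2 was at 13.6, 14.1, 9.84, 7.84 and 11.1 FPKM in Tshr-/- libraries 1 to 5 and at 8.53, 10.4, 8.07, 8.42 and 11.3 in wild-type libraries (log2 difference 0.25 ± 0.16, SE, limma adjusted p = 0.521). Tshr-/- libraries 1 and 2 exceeded every wild-type library, and with the thalamus covariate the difference was 0.10 (0.707). Rab3a was at 204, 205, 219, 192 and 224 FPKM in Tshr-/- libraries and at 230, 208, 224, 206 and 217 in wild-type libraries, a difference of -0.06 ± 0.06 (SE, 0.695).

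Neurexins are presynaptic adhesion proteins that bind partners across the cleft. Nrxn2 had 36.7 ± 4.81 FPKM in Tshr-/- and 37.5 ± 4.58 in wild type. Nrxn3 was at 16.5, 14.7, 16.4, 15.4 and 15.7 FPKM in Tshr-/- libraries 1 to 5 and at 16.5, 16.6, 16.2, 18.3 and 16.9 in wild-type libraries 1 to 5. In all, 3 Tshr-/- libraries lay below all wild-type libraries (log2 difference -0.10 ± 0.05, SE, limma adjusted p = 0.415). Nrxn3 is the only one of the 27 on chromosome 12 (88722876 to 90334935, mm10), and it ends 1.05 Mb before Tshr.

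Between libraries of both genotypes, 4 of the 27 genes separated the 4 libraries above average in thalamic markers from the 6 below. Slc17a6 (9.77 to 32.6 against 0.896 to 4.24 FPKM), Unc13c (3.99 to 5.90 against 0.843 to 2.13) and Vamp1 (16.7 to 23.3 against 10.97 to 15.3) were higher in the 4. Slc17a7 was lower in them (254 to 337 against 352 to 466). The other 23 genes overlapped. Of all tested genes, 4.64% were higher and 2.79% lower in the 4 libraries without overlap. The sets were made by thalamic markers, which are therefore higher in the 4 by construction. For scale, Tcf7l2, a transcription factor of thalamic neurons, was at 6.86, 14.5, 4.83 and 4.83 FPKM in the 4 libraries and 0.429 to 0.769 in the 6. These sets of libraries are not groups of the study.

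Syt2 and Vamp1 were also compared in the 6 libraries below average in thalamic markers, and with marker means as covariates. The 6 were chosen after seeing the data, and thalamic markers still differed by genotype among them. Their thalamus list means were -0.60, -0.44 and -0.51 in Tshr-/- libraries 3 to 5. Wild-type libraries 1, 3 and 4 were at -1.09, -0.89 and -1.20. Tshr-/- libraries 4 and 5 were also the highest in choroid plexus and in neocortex markers. The 3 Tshr-/- libraries had 1.97 to 3.00 FPKM of Syt2 and the 3 wild-type libraries 3.05 to 4.94, so the nearest values almost met. For Vamp1 the same libraries overlapped, at 10.97 to 13.1 FPKM in Tshr-/- and 12.6 to 15.3 in wild type. How many of all tested genes separate these 6 libraries by genotype was not counted. With the thalamus list mean as a covariate, the log2 difference of Vamp1 was -0.41 ± 0.07 (SE, limma adjusted p = 0.0791). That of Syt2 was -0.87 ± 0.18 (SE, limma adjusted p = 0.114). Neither passed, and with the choroid plexus and neocortex means added the values were -0.34 and -0.67 (adjusted p = 0.224 and 0.293). Among the 6 libraries below average they were -0.24 and -0.76 (0.522 and 0.395). Pvalb, the parvalbumin of fast interneurons, was at 35.5, 36.7, 27.3, 22.2 and 22.5 FPKM in Tshr-/- libraries 1 to 5 and at 40.3, 55.6, 36.3, 30.7 and 42.5 in wild-type libraries 1 to 5 (limma adjusted p = 0.287). In the list of 13 interneuron markers, 10 were lower and 3 higher in Tshr-/-, with 0 called, and their summed level was 745 to 1049 FPKM against 949 to 1082. An unadjusted limma p below 0.05 was found for 4 of the 13, all lower, beside 13.0% of all tested genes. Gad1, the enzyme that makes GABA, had 32.7 ± 1.496 and 37.5 ± 2.38 FPKM (limma adjusted p = 0.204). All 5 Tshr-/- libraries lay below all wild-type libraries in Gad1, and 2.68% of all tested genes did not overlap between genotypes. The part of these interneuron markers in the values of Syt2 and Vamp1 was not tested.

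**Figure D4:**
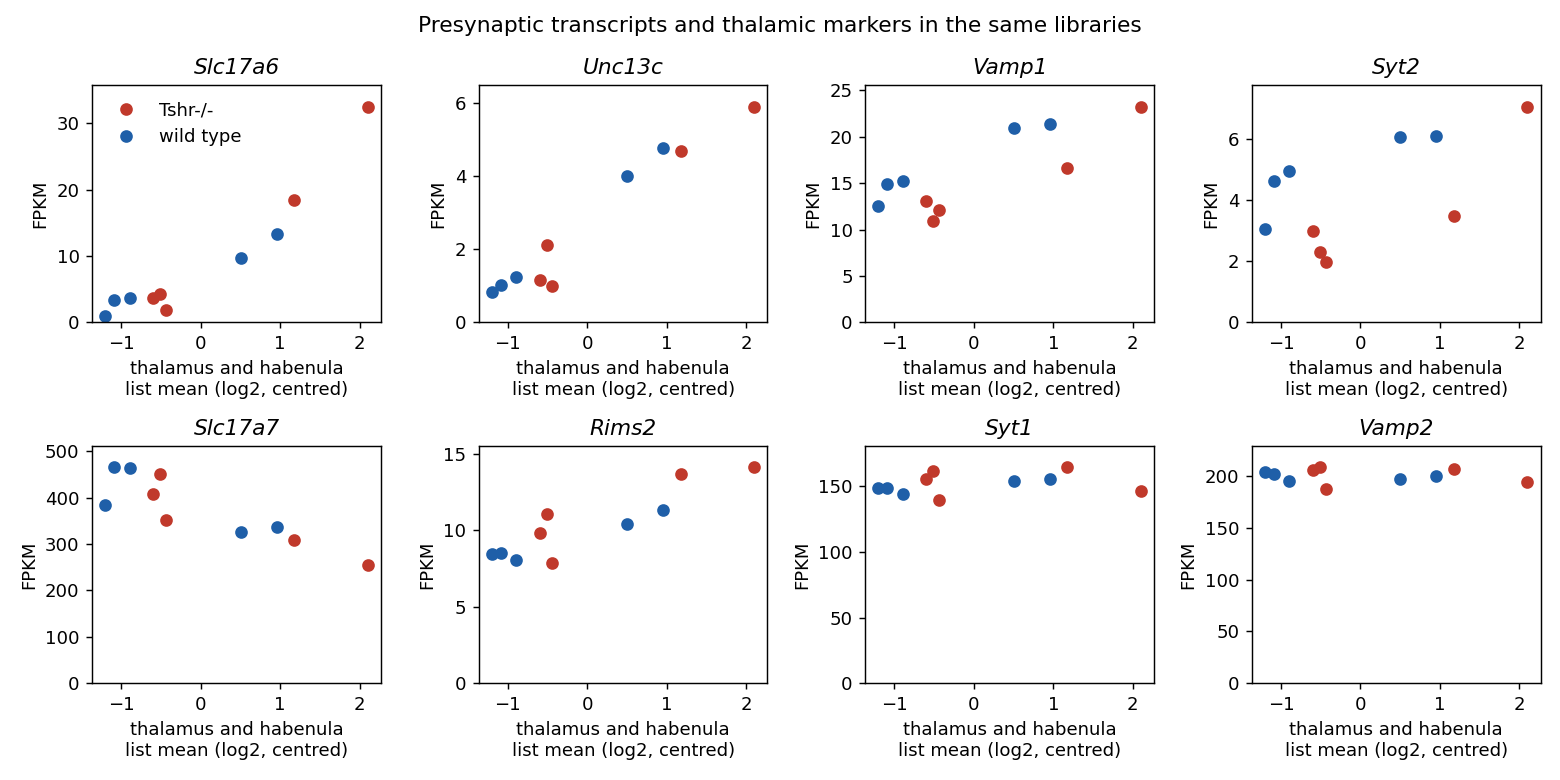
FPKM of 8 presynaptic genes (vertical axes from 0) in each library against the centred log2 mean of the thalamus and habenula list, with Tshr-/- in red and wild type in blue. Slc17a6, Unc13c and Vamp1 are highest and Slc17a7 is lowest in the 4 libraries to the right of 0, while Syt1 and Vamp2 keep to 140 to 165 and 187 to 208 FPKM.

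Related genes were then compared within a library, since a ratio does not depend on library scaling. The level of a gene relative to its relative passed the test between genotypes in none of 10 pairs (2-sided exact permutation test over 5 against 5 libraries, which cannot go below 0.00794). Syt2 was at 2.34% ± 1.42 of the Syt1 level in Tshr-/- and at 3.29% ± 0.777 in wild type (log2 difference -0.60, exact permutation p = 0.135, adjusted over the 10 ratios 0.714). Vamp1 stood at 7.62% ± 2.63 and 8.55% ± 2.04 of Vamp2 (exact permutation p = 0.468). Slc17a6 as a percent of Slc17a7 was 0.527% to 12.8% over Tshr-/- libraries and 0.233% to 3.97% over wild-type ones (exact permutation p = 0.460).

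Complexin 1 exceeded complexin 2 in most libraries of both genotypes, at 136% ± 37.2 and 127% ± 18.1 (exact permutation p = 0.770). Syn2 was at 65.0% ± 3.74 and 66.1% ± 1.98 of Syn1 (exact permutation p = 0.643). Rims2 was at 45.0% ± 11.2 of Rims1 in Tshr-/- and at 37.0% ± 5.72 in wild type (exact permutation p = 0.198). Over the 10 ratios, adjusted p values were 0.714 to 0.770.

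**Figure D5:**
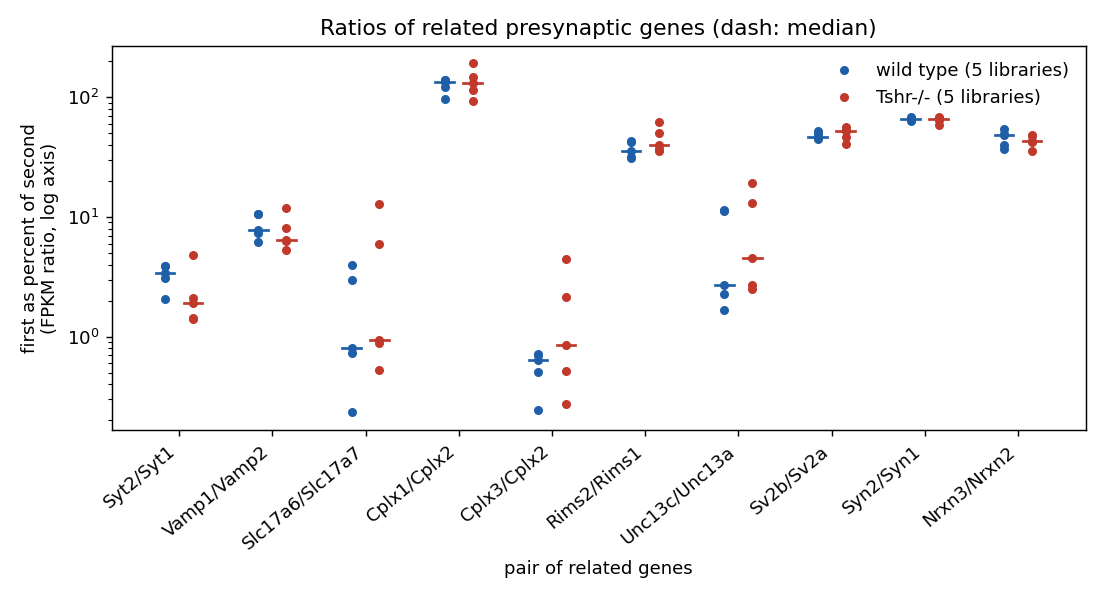
FPKM of the first gene as a percent of the second, on a log axis, in each of 5 wild-type (blue) and 5 Tshr-/- (red) libraries for 10 pairs, with a dash at the median. The genotypes overlap in every pair, tightly for Syn2/Syn1 (59.0% to 68.8%) and widely for Slc17a6/Slc17a7 (0.233% to 12.8%).

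Other genes of the release cycle, from lists on vesicle loading, further calcium sensors, SNARE handling, priming and recycling, were likewise without a call. Of 90 genes, 87 were tested, 36 were higher and 51 lower in Tshr-/-, 13 had an unadjusted limma p below 0.05 (4 higher, 9 lower) and 0 passed, with a median log2 difference of -0.02. The 13 are a share close to the 13.0% of all tested genes. Among 13 calcium sensors, Doc2b, a soluble sensor for spontaneous and asynchronous release, had 20.7 ± 4.55 FPKM in Tshr-/- and 29.6 ± 4.69 in wild type (limma adjusted p = 0.200). Rph3a, rabphilin, an effector of Rab3a, had 66.7 ± 4.02 and 76.5 ± 3.95 (0.204), whereas Syt10 had 4.43 ± 0.619 and 3.36 ± 0.547 (0.238). Both lower genes overlapped between genotypes.

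Of 14 tested vesicle membrane and loading genes, 7 were higher and 7 lower. Vat1l had 8.31 ± 2.94 FPKM in Tshr-/- and 4.02 ± 1.42 in wild type (limma adjusted p = 0.206). Slc17a8, the transporter VGLUT3 of a set of interneurons, had 1.08 ± 0.280 FPKM in Tshr-/- and 1.77 ± 0.325 in wild type (limma adjusted p = 0.204). Among 22 genes of active zone and priming, 14 were lower. Ppfia2, a liprin scaffold, had 11.3 ± 1.17 and 13.9 ± 0.985 FPKM (0.187), and Erc2, which binds RIM, had 18.8 ± 1.78 and 21.5 ± 1.07 (0.282). Cask, an adaptor of neurexins, had 5.88 ± 0.384 and 5.25 ± 0.420 (0.362).

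Of 20 tested SNARE handling genes, 9 were higher and 11 lower, with 0 at an unadjusted limma p below 0.05. Nsf, the ATPase that takes spent SNARE bundles apart, had 122 ± 7.56 FPKM in Tshr-/- and 130 ± 2.77 in wild type (limma adjusted p = 0.462). Of 18 recycling genes, 13 were lower, including Bin1, an amphiphysin, at 117 ± 5.14 against 133 ± 7.46 FPKM (0.211), and Dnm1, the dynamin that pinches off vesicles, at 357 ± 46.0 against 414 ± 49.8 (0.415). Beside these, 15 of 15 markers of hippocampal principal neurons and 8 of 12 general neuron markers were lower, with 0 called. An unadjusted limma p below 0.05 was found for 9 of the 15 (median log2 difference -0.46) and for 4 of the 12, all of them lower in Tshr-/-. Of all tested genes, 13.0% had such a p and 53.3% were lower. The summed level of the principal neuron list was 308 to 433 FPKM in Tshr-/- and 418 to 548 in wild type. Its part in the values of the release genes was not tested.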

How the data were processed

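Messenger RNA of 10 hippocampal libraries was measured. Per the labels' protocols, libraries came from a NEBNext Ultra RNA kit. That kit is not a stranded one, and the records of 9 of the 27 genes overlap that of an opposite-strand gene of at least 0.5 FPKM. Among these are Timp3 for Syn3, Araf for Syn1, Ppp1r12b for Syt2, Tapbpl for Vamp1 and Colgalt1 for Unc13a. Reads from any shared exon bases could not be told apart, and exon overlap was not examined. Per the submitters' processing notes, HISAT2 2.0.5, featureCounts 1.5.0-p3 and mm10 were used. Values deposited by the authors are FPKM of 52636 genes. The annotation release and the library sizes behind the FPKM are not given in the sources used here.

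Read numbers were rebuilt by dividing the product of FPKM and length by what 1 read is worth in that library, and 100% of nonzero values came out whole within 0.01 read. Libraries of a genotype differed by more than sampling noise (chi-square per gene of at least 5.5). Genotypes were compared in R 4.3.3 with limma 3.58.1 on log2(FPKM + 0.1), with a mean-variance trend, over 15471 genes with a mean of at least 0.5 FPKM and Benjamini-Hochberg adjustment over all of them. Fold changes on this scale understate low genes. The fit was checked on simulated read numbers. Ratios were tested with exact permutation of libraries.

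The genes, lists and alternatives were chosen with earlier results of these data known. The rule for naming takes all 27 genes, up to 4 genes with the smallest p of each release-cycle list, and the listed markers. Values in every library are for the genes with the 8 smallest p, the 5 largest SD and the 5 highest levels, and for Vamp1, added after its values were seen. P-values measure the spread between these libraries. Of 12 neocortex genes, 11 had a row in the table. Alternatives are given in the closing section. Same-numbered libraries were not treated as pairs.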

Additional observations from a re-analysis of the deposited data

Results flagged for a closer look

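In 74 sets of 5 libraries (each gene or ratio in each genotype), the highest and the lowest library were compared with the nearest of the others by Dixon's ratio of gap to range, with 0.71 as the critical value, which chance exceeds in about 1 in 20 sets. In 2 sets a library stood apart. Sv2a was at 92.7 FPKM in wild-type library 4, where the other wild-type libraries were at 107 to 110 (ratio 0.822). Syt2 was at 4.82% of the Syt1 level in Tshr-/- library 2, the library highest in thalamic markers, where the other Tshr-/- libraries were at 1.41% to 2.12% (ratio 0.792).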

How the results depend on the processing

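No presynaptic gene was called by limma in any of 26 other settings (lowest adjusted p 0.0791, Vamp1 with the thalamus covariate). Of 701 log2 differences, 53 changed sign, and 13 of the 27 genes kept theirs throughout. Leaving out 1 library moved the difference by over 1.5 times for 22 genes, and for Syt2, Cplx1, Cplx2, Bsn and Nrxn3 by less. With quantile normalization or scaling to total reads, 10 of the 27 genes were lower, beside 7866 and 5218 of all 15471 tested genes. An unadjusted p below 0.05 was found for 0 of them with no filter, 2 with array weights, 4 with the thalamus covariate (14.8%, against 12.7% of all tested genes), 6 with thalamus, choroid plexus and neocortex covariates (22.2% against 11.3%) and 0 to 3 without one library. A replicate block gave 4 such genes (14.8% against 14.0%). The labels do not say that same-numbered libraries are pairs. Correlations of their deviations ran from -0.0651 to 0.296, with own number best for 2 of 5, which cannot settle it. Of all tested genes, 14 were called with a pseudocount of 0.01, 13 with a filter at 1 FPKM, median-ratio scaling or robust variances, 17 among protein-coding genes, 8 with the thalamus covariate or total scaling, 4 with no filter or quantile normalization, 1 without the variance trend and 0 to 9 without one library. The cause was not tested.

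Quantile normalization turned Syn1 to 0.0393, Syn2 to 0.0120, Syp to 0.0318, Snap25 to 0.0363, Rims1 to 0.0579, Pclo to 0.0124, Rab3a to 0.0314 and Nrxn2 to 0.0433. Total scaling gave Syn1 0.0105, Syn3 0.0531, Syp 0.00655, Snap25 0.00966, Rims1 0.0621, Pclo 0.0468, Rab3a 0.0123 and Nrxn2 0.0372. Median-ratio scaling gave Syn3 0.00277 and Rims1 0.00498. The thalamus covariate gave Syn3 0.00242, Sv2a -0.00910, Slc17a6 -0.229, Rims1 0.00710, Unc13c -0.325 and Nrxn2 0.0258. The 3 covariates gave Sv2a -0.0213, Slc17a6 -0.121, Unc13c -0.468 and Nrxn2 0.00843. Among the 6 libraries low in thalamic markers, Syn3 was 0.143, Rims1 0.00568 and the Cplx1/Cplx2 ratio -0.0583. Without one library, Syn3 ran from -0.0847 to 0.0482, Sv2a from -0.0163 to 0.0816, Stx1a from -0.00200 to 0.387, Vamp2 from -0.00740 to 0.0308, Rims1 from -0.0735 to 0.0397, Pclo from -0.0515 to 0.00650 and Nrxn2 from -0.102 to 0.0229. The log2 ratio of Cplx1 to Cplx2 ran from -0.0643 to 0.196 and that of Syn2 to Syn1 from -0.0452 to 0.0103. Total scaling and the 6 libraries were chosen after seeing the data.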
